A study of Homo sapiens with 8 samples.

Results

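The RPL17 siRNA libraries are 2 of the 8 libraries of the series, 1 from HCT116 cells and 1 from HT29 cells, both established lines from human colorectal cancers. They were set against the 4 libraries of the same lines given an siRNA against RPL9 or RPL27. In each line the RPL17 siRNA library was compared with the mean of the other 2, over the 14217 of 19124 listed genes whose mean over these 6 libraries was at least 1 RPKM (reads scaled to transcript length and library depth). The choice of libraries rests on the labels and used no measured value. At the edge of that filter, FYB passed with a mean of 1.001 RPKM and TMEM52B did not with 0.9997.

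Every group held both lines, and every culture received its siRNA at 15 nM with Lipofectamine 2000, with total RNA taken 48 h later. The groups were RPL17 siRNA, RPL9 siRNA, RPL27 siRNA and a negative control siRNA (NC), each with 1 library of HCT116 and 1 of HT29. The 6 libraries compared therefore share the transfection and the loss of a ribosomal protein mRNA, and the NC libraries entered no test below. No siRNA was repeated within a line, so the replicates are the 2 cell lines, and with 1 siRNA named per gene the loss of RPL17 and other effects of that reagent cannot be told apart.

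RPL17, RPL9 and RPL27 are proteins of the large ribosomal subunit, and each is needed to build that subunit. Free 5S ribonucleoprotein, which holds RPL5 and RPL11, then binds MDM2, the ubiquitin ligase of p53, and cells often slow their division. HCT116 carries wild-type p53 and HT29 a mutant form, and RPL17 lies on the outer surface of the subunit around the exit of the peptide tunnel.

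The deposited tables gave 1 RPKM value per gene and library, so that values are compared here between libraries and not between genes. Reads per library were estimated at 20.7 to 26.5 M (mega) for the 6 libraries, with the lowest value in HCT116 RPL17 siRNA and the highest in HT29 RPL9 siRNA. The HT29 NC library stood apart. Over all genes the median log2 difference between the HT29 RPL siRNA libraries and it was 0.18 to 0.21, against 0.00 to 0.02 in HCT116. Single genes lay further from it in either direction. KIF5B had 1349 RPKM in HT29 NC and 3349 to 4403 under the HT29 RPL siRNAs, and RPL3 had 36859 and 12897 to 14178. Values against NC are therefore given for both lines only as description. Of the epithelial markers, KRT8 (12803 RPKM or more), KRT18 (5256 or more) and EPCAM (2248 or more) were high in all 6 libraries. The intestinal marker CDX1 was at or near 0 throughout, and CDX2 was low in both lines (8.04 to 18.8). In HCT116, VIL1 (0 to 2.89), LGALS4 (0.952 to 11.98), KRT20 (2.32 to 16.3) and CEACAM5 (0.424 to 2.95) were low as well. The summed leukocyte markers were 65.9 to 94.4 RPKM in HCT116, mostly CD68 (54.9 to 84.4), and 2397 to 3044 in HT29, nearly all LYZ. The defining marker PTPRC was at 0 to 0.495, and CD3E at 0 except for 8.03 in HT29 RPL27 siRNA. Endothelial markers summed to 1.05 to 10.9 RPKM and stromal markers to 367 to 536, mostly COL1A1, with DCN at 0 to 0.726 and LUM at 0 to 0.0458.

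The targeted mRNA was low in the libraries labelled for it. RPL17 stood at 27302, 10004.5 and 31298.5 RPKM in HCT116 under RPL9, RPL17 and RPL27 siRNA, and at 27912, 8240.03 and 28748 in HT29. Both RPL17 siRNA libraries lay below all 4 others, at 34.1% and 29.1% of the mean of the other 2 in their line (log2 difference −1.66, SE 0.06, adjusted p = 0.000724, limma). RPL17-C18orf32, a readthrough transcript that overlaps RPL17 and shares its reads, gave −1.65 (SE 0.06, adjusted p = 0.000724). C18orf32, the neighbour on the other side of that readthrough, had a log2 difference of 0.01 (SE 0.13, adjusted p = 0.987).

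RPL9 mRNA passed the threshold as well, through the libraries that were transfected against it. It was at 5560.1, 18619 and 18823 RPKM in HCT116 and at 5245, 17619 and 17546 in HT29 under RPL9, RPL17 and RPL27 siRNA, so that its level under RPL17 siRNA was 98.9% and 100.4% of that under RPL27 siRNA. The log2 difference was 0.87 against both others (SE 0.03, adjusted p = 0.000724) and −0.00 against RPL27 siRNA alone (SE 0.02, adjusted p = 0.943).

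RPL27 mRNA was intermediate under RPL17 siRNA. Its values were 9280 RPKM under RPL9 siRNA, 4723 under RPL17 siRNA and 2045 under RPL27 siRNA in HCT116, and 10529.9, 4754 and 2214 in HT29. Under RPL17 siRNA it thus stood at 50.9% and 45.1% of its level under RPL9 siRNA. That difference passed the threshold (log2 −1.06, SE 0.07, adjusted p = 0.0124, limma against RPL9 siRNA alone, 4 libraries, in which 0.0492% of genes passed), whereas against both others, 1 of which targets it, it was 0.05 (SE 0.05, adjusted p = 0.684).

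**Figure D1:**
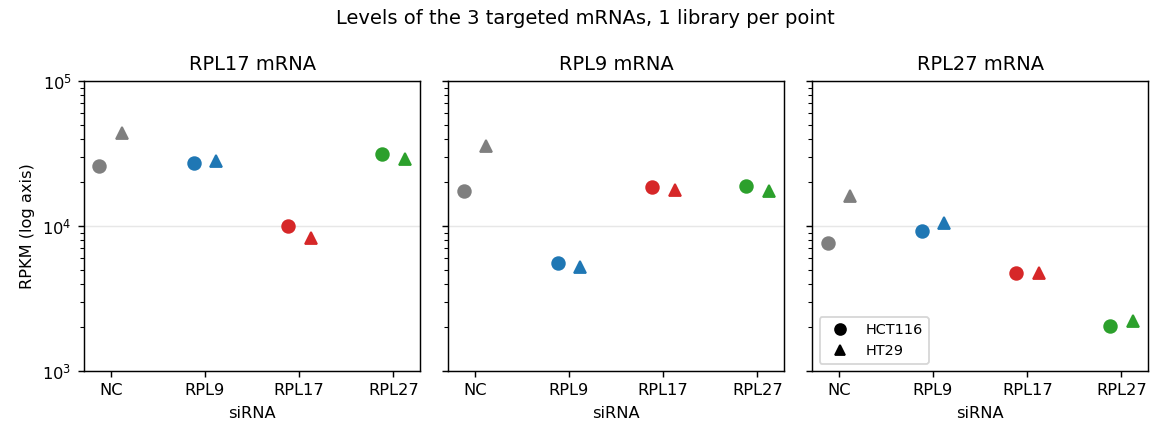
RPKM (log axis) of RPL17, RPL9 and RPL27 mRNA in each of the 8 libraries by siRNA, with circles for HCT116 and triangles for HT29. RPL17 mRNA was at 10004.5 and 8240.03 RPKM under its own siRNA, and RPL27 mRNA at 4723 and 4754 RPKM under RPL17 siRNA lay between its levels under RPL9 and RPL27 siRNA.

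RPL17 siRNA differed from the other RPL siRNAs past the threshold in a small set of genes, which includes RPL17, its readthrough and RPL9. A total of 66 genes (0.464% of those tested) passed an adjusted p of 0.05, with 20 higher (0.141%) and 46 lower (0.324%) under RPL17 siRNA. With so few libraries the fit passes genes on which the lines agree, so that their agreement was set by the selection. The lower genes fell by 0.38 to 2.98 on the log2 scale with a median of −0.68, and the higher ones rose by 0.32 to 0.88 with a median of 0.57. Among all genes the median was 0.01. With quantile normalization the same test gave 85 higher and 119 lower genes, a more even split (1.43% of genes).

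The RPL17 library lay below both other libraries of its line, in both lines, for 46 of the 46 lower genes (15.1% of all genes tested), and above both for 16 of the 20 higher genes (16.5% of all). The other 4 higher genes were RPL9, whose difference came from RPL9 siRNA, and PKM, UQCRC2 and NT5E, which were lowest under RPL27 siRNA in both lines. For 39 of the 46 lower genes and 13 of the 20 higher ones, both RPL17 libraries lay outside all 4 others, as they did for 6.56% and 7.03% of all genes on those sides. These counts describe genes that the same values had selected.

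Across all genes, RPL17 siRNA was about as distant from the other RPL siRNAs as these were from each other. Over the 12326 genes with a mean of 5 RPKM or more, the SD of the log2 difference in HCT116 was 0.49 between RPL17 and RPL9 siRNA, 0.50 between RPL17 and RPL27 siRNA and 0.48 between RPL9 and RPL27 siRNA. In HT29 the 3 values were 0.51, 0.43 and 0.54. A 2-fold or larger difference was seen in 539, 563 and 606 genes in HCT116 and in 671, 384 and 766 genes in HT29, in the same order of pairs. The sign of the difference of RPL17 siRNA from the other 2 was shared by both lines in 9051 genes (63.7%), and the correlation of the 2 lines' differences across the 12326 genes was r = 0.29, a description over genes that are not independent.

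The number of genes past the threshold depended on the fit, which has 2 residual degrees of freedom. It was 3 (RPL17, RPL17-C18orf32 and AATF, all lower) with RPL9 and RPL27 siRNA taken as 1 group of 4 libraries. It was 0 without the term for cell line. In both of these fits the log2 differences are unchanged by design, so that their signs could not change. The number also fell where an RPL17 or RPL27 siRNA library was left out. Without the RPL17 siRNA library of HCT116, the log2 differences of the 66 genes were 0.78 to 1.18 times those with all libraries. Without that of HT29 they were 0.82 to 1.22 times. The 66 genes had been selected for agreement between the lines, so kept signs there are no separate support.

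**Figure D2:**
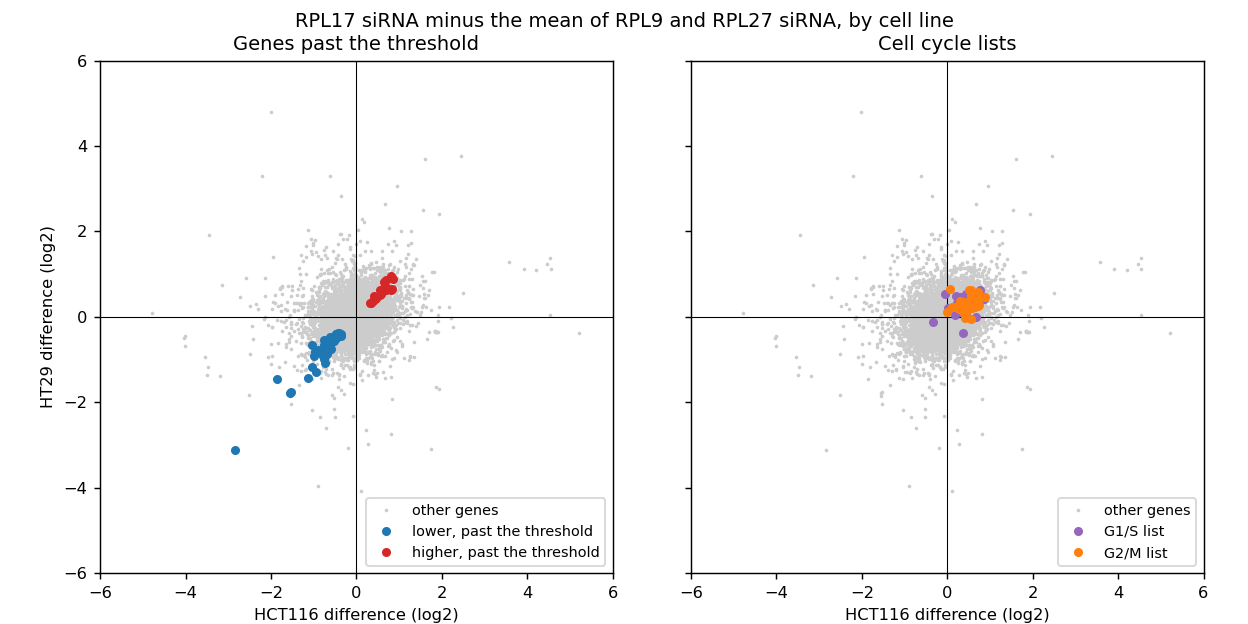
Log2 difference of RPL17 siRNA from the mean of RPL9 and RPL27 siRNA in HCT116 (x axis) and in HT29 (y axis), 1 point for each of 12326 genes. On the left are the genes past the threshold, which lie near the diagonal as the fit selects genes on which the lines agree, and on the right the members of the G1/S and G2/M lists, most of which lie above 0 in both lines.

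C2 was the lowest of the lower genes. This complement protein forms, with C4b, the enzyme that cleaves C3. Its RPKM under RPL9, RPL17 and RPL27 siRNA was 32.1, 2.48 and 17.6 in HCT116 and 28.9, 1.30 and 12.45 in HT29, and 16.7 and 4.99 in the NC libraries. The RPL17 siRNA libraries had the lowest C2 values of all 8, at 9.96% and 6.29% of the mean of the other 2 RPL siRNAs (log2 −2.98, SE 0.26, adjusted p = 0.0266, limma). A gene at so low a level depends on the pseudocount of 1, and the difference was −3.49 with 0.1 and −1.95 with 5 in its place.

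AATF had the smallest p after the targets and their overlapping transcript. Its protein is a nucleolar and transcription factor that takes part in maturation of the small ribosomal subunit and counters apoptosis. The values were 1306, 636 and 1299 RPKM in HCT116 and 1343, 593 and 1313 in HT29 under RPL9, RPL17 and RPL27 siRNA. RPL9 and RPL27 siRNA left AATF at nearly the same level in each line, and both RPL17 libraries lay below all others, NC included (907 and 1229). The log2 difference was −1.10 (SE 0.06, adjusted p = 0.00825).

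AGPAT4 and SEC14L2 were also among the lowest genes. AGPAT4, an acyltransferase of phosphatidic acid synthesis, had 299.8, 56.9 and 146 RPKM in HCT116 and 203, 40.7 and 63.4 in HT29 (log2 −1.66, SE 0.18, adjusted p = 0.0365). In HCT116 the RPL17 siRNA value was close to that of NC (55.5). In HT29 it lay below NC (54.1), and RPL27 siRNA was closer to NC. RPL9 siRNA was the most distant from NC in both lines. SEC14L2, which binds vitamin E and squalene, had 269, 182 and 458 RPKM in HCT116 and 322, 163 and 505 in HT29 (log2 −1.12, SE 0.11, adjusted p = 0.0334).

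HMOX1 and BLVRA were lower. HMOX1, which opens the heme ring to give biliverdin, had 168, 65.9 and 126 RPKM in HCT116 and 141, 37.8 and 76.1 in HT29 under RPL9, RPL17 and RPL27 siRNA (log2 −1.28, SE 0.16, adjusted p = 0.0471). BLVRA, a biliverdin reductase, had 396, 219 and 352 RPKM in HCT116 and 268, 134 and 264 in HT29 (log2 −0.87, SE 0.10, adjusted p = 0.0414). For both genes the RPL17 siRNA library was the lowest of the 4 in each line, since NC gave 81.0 and 71.5 RPKM for HMOX1 and 343 and 439 for BLVRA.

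EGFR, RGS10, PHLDA2 and DPCD completed the lowest set. EGFR, the epidermal growth factor receptor, had 337, 146 and 246 RPKM in HCT116 and 481, 224 and 333 in HT29 (log2 −0.90, SE 0.09, adjusted p = 0.0334). Against NC the lines went apart for EGFR, as NC had 298 RPKM in HCT116 and 22.5 in HT29, the library with the differing median. RGS10, which speeds GTP hydrolysis by G protein alpha subunits, fell by 0.91 (SE 0.12, adjusted p = 0.0466). PHLDA2, an imprinted gene with a pleckstrin homology domain, fell by 0.96 (SE 0.11, adjusted p = 0.0372), and DPCD, a gene linked to cilia, by 0.89 (SE 0.09, adjusted p = 0.0337). The RPL17 library was below NC for 37 of the 46 lower genes in HCT116 and for 31 in HT29. These genes were selected for low values under RPL17 siRNA, and the share of all genes below NC was not counted.

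Among the higher genes other than RPL9, MT1E and CCND1 led. MT1E encodes a metallothionein, a small metal-binding protein with close paralogs that can share its reads, and had 798, 1386 and 774 RPKM in HCT116 and 620.4, 1272 and 699 in HT29 under RPL9, RPL17 and RPL27 siRNA (log2 0.88, SE 0.08, adjusted p = 0.0266). CCND1 encodes cyclin D1, the partner of CDK4 and CDK6 in G1, and had 1659, 2610.4 and 1586 RPKM in HCT116 and 1063, 1953 and 1077 in HT29 (log2 0.78, SE 0.07, adjusted p = 0.0266). For both, RPL9 and RPL27 siRNA gave nearly equal values within a line, and the RPL17 libraries stood above them. CCND1 was at 1087 and 365 RPKM in NC, so all 3 RPL siRNAs exceeded NC in both lines.

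NEDD8 and UBE2D3 were also higher. NEDD8, the ubiquitin-like modifier of cullins, had 1416, 1715 and 646 RPKM in HCT116 and 1324, 1475 and 672 in HT29. Most of its difference of 0.74 (SE 0.07, adjusted p = 0.0334) came from RPL27 siRNA, since it was 1.27 against RPL27 siRNA alone and 0.22 against RPL9 siRNA alone (adjusted p = 0.253). The overlapping readthrough NEDD8-MDP1 shares its reads and gave 0.72. UBE2D3, a ubiquitin-conjugating enzyme, had 2598, 3297 and 1695 RPKM in HCT116 and 2500.1, 3124 and 1511 in HT29 (log2 0.67, SE 0.05, adjusted p = 0.0257). Its difference was likewise larger against RPL27 siRNA alone, at 1.00, than against RPL9 siRNA alone, at 0.33 (adjusted p = 0.123).

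The remaining named higher genes included parts of the kinetochore and spindle checkpoint. CASC5 (current symbol KNL1), the kinetochore scaffold that binds BUB1 and BUBR1, had 369, 576 and 344 RPKM in HCT116 and 313, 482 and 306 in HT29 (log2 0.66, SE 0.08, adjusted p = 0.043). BUB1B, which encodes BUBR1, had 827, 1142 and 726 in HCT116 and 745, 1045 and 717 in HT29 (log2 0.54, SE 0.07, adjusted p = 0.0439). Both genes were highest under RPL17 siRNA among the RPL siRNAs of each line. The others were ABCC4, an export pump (0.70), SPTLC1, a subunit of serine palmitoyltransferase (0.59), CALM3, a calmodulin gene (0.56), PPIH, a cyclophilin of the spliceosome (0.45), and RPL35 (0.45). Adjusted p was 0.0306 to 0.043 for these 5. The RPL17 library was above NC for 14 of the 20 higher genes in HCT116 and for 10 in HT29. These genes were selected for high values under RPL17 siRNA, and the share of all genes above NC was not counted.

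**Figure D3:**
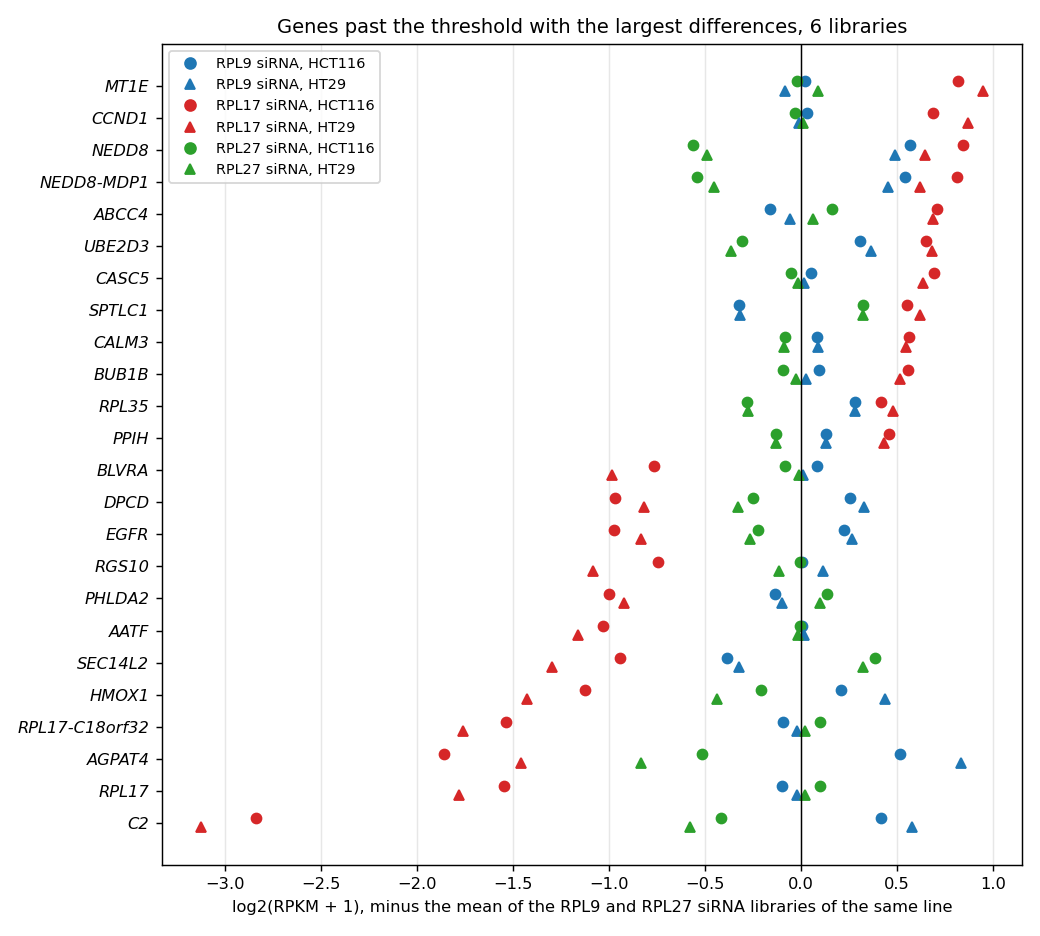
log2(RPKM + 1) of the 24 genes with the largest differences past the threshold, in each of the 6 libraries, relative to the mean of the RPL9 and RPL27 siRNA libraries of its line. RPL17 siRNA points (red) lie outside both other siRNAs in both lines by the rule that chose the genes, while the RPL9 and RPL27 points lie together for genes such as AATF, CCND1 and MT1E and apart for NEDD8, AGPAT4 and SEC14L2.

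Ribosomal protein mRNAs had medians near 0, with 7 members past the threshold. Of the 47 large subunit mRNAs tested, 2 were higher (RPL9 and RPL35) and 3 lower (RPL17, RPL32 and RPL10), beside 0.141% and 0.324% of all genes, with a median of −0.02, which turned to 0.03 with quantile normalization. Of the 32 small subunit mRNAs, 2 were lower and none higher, with a median of −0.05 (−0.00 with quantile normalization). Apart from the 3 targets, 76 ribosomal protein mRNAs were tested, of which 4 were lower and 1 higher (0.464% of all genes passed in either direction). RPL35 had the highest difference at 0.45. Of these 76, 22 were below both other siRNAs in both lines and 10 above both, beside 15.1% and 16.5% of all genes. Ribosomal protein genes have many processed pseudogenes, and how reads shared with such copies were counted is not given, so single values of this family are uncertain.

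RPL35 had 5928, 6508 and 4004 RPKM in HCT116 and 5609.7, 6445 and 3811 in HT29 under RPL9, RPL17 and RPL27 siRNA. Its values were lowest under RPL27 siRNA in both lines. RPL32 had 5169, 3910.3 and 5677 RPKM in HCT116 and 4702, 3631 and 4953 in HT29 (log2 −0.44, SE 0.04, adjusted p = 0.0334). RPL5 and RPL11, the partners of 5S rRNA, did not pass the threshold, at −0.32 (SE 0.05, adjusted p = 0.0542) and 0.09 (SE 0.04, adjusted p = 0.27). RPL5 was below both other siRNAs in both lines.

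Translation factors had a median of −0.06 over 32 genes, with 1 lower and 8 below both other siRNAs in both lines (25.0% of them, beside 15.1% of all genes). The lower one was EEF2, the elongation factor that moves the ribosome along the mRNA, with 22911, 15332 and 22309 RPKM in HCT116 and 18062, 13359.7 and 19876 in HT29 (log2 −0.53, SE 0.04, adjusted p = 0.0266). Both RPL17 siRNA libraries were below all 4 others for EEF2. Ribosome biogenesis and RNA polymerase I genes had a median of 0.01 over 40 genes and none past the threshold.

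Over both lines together the cell cycle lists had the highest medians, although in HT29 alone the histones were higher at 0.50. Of 61 genes of G2/M and mitosis, 53 (86.9%) were above both other RPL siRNAs in both lines and 0 below both, with a median of 0.44 (0.56 in HCT116 and 0.31 in HT29). Of 46 genes of G1/S and DNA replication, 36 (78.3%) were above both in both lines and 0 below both, with a median of 0.38 (0.43 and 0.34). Over all genes 16.5% were above both and 15.1% below both, and the median was 0.01. Few members passed the threshold singly: BUB1B was the 1 G2/M gene, and no G1/S gene did (0.464% of all genes passed). An unadjusted p under 0.05 (limma) was found for 52 and 38 members, and for 2585 of all 14217 genes. With genes of mean RPKM of 5 or more, of which 2.6% passed, the same fit called 18 G2/M and 13 G1/S genes, all higher. Against RPL9 siRNA alone, where only 0.0492% of all genes passed, none of either list was called, which says little about these lists. In bulk RNA, fewer cells in a phase and less of these mRNAs per cell cannot be told apart.

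The leading G2/M members after BUB1B were KIF4A, TOP2A and AURKB. KIF4A, a chromosome-bound kinesin, had 461, 748 and 453 RPKM in HCT116 and 496, 773 and 557 in HT29 under RPL9, RPL17 and RPL27 siRNA (log2 0.63, SE 0.08, adjusted p = 0.0521). TOP2A, the topoisomerase that untangles sister chromatids, had 1527, 2349.8 and 1456 in HCT116 and 2466, 3207 and 2425 in HT29 (0.52, SE 0.07, adjusted p = 0.0542). For both genes the RPL17 siRNA values stood clear of the other 2 in each line. AURKB, the kinase of the chromosomal passenger complex, was at 0.61 (SE 0.09, adjusted p = 0.0542), MKI67, the proliferation antigen Ki-67, at 0.50 (SE 0.09, adjusted p = 0.0779), and CCNB1, cyclin B1, at 0.29 (SE 0.07, adjusted p = 0.113).

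In G1/S the leading members were MCM3 and MCM7, subunits of the replicative helicase, ORC6, part of the origin recognition complex, and CDC6, which loads the helicase. MCM3 had 1396, 1749 and 1312 RPKM in HCT116 and 1174, 1528 and 1113 in HT29 (log2 0.39, SE 0.05, adjusted p = 0.0542). ORC6 had 149.7, 252 and 145 in HCT116 and 164, 237 and 144 in HT29 (0.70, SE 0.11, adjusted p = 0.0604). The RPL17 library exceeded both others in each line for these genes, and NC exceeded it.

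Set beside NC, the medians of the cell cycle lists were below NC under each of the RPL siRNAs and least so under RPL17 siRNA. In HCT116 the G2/M median against NC was −1.11 under RPL9, −0.69 under RPL17 and −1.33 under RPL27 siRNA, and in HT29 it was −0.64, −0.41 and −0.91. The G1/S medians were −0.79, −0.43 and −0.91 in HCT116 and −0.51, −0.27 and −0.66 in HT29. These differences share the NC library of the line, and the order of the 3 siRNAs was the same in both lists and both lines. In HCT116, 59 of the 61 G2/M genes and 42 of the 46 G1/S genes lay between NC and both other siRNAs. In HT29, where NC stood apart, 39 and 26 did. The share of all genes in that position was not counted. At or above NC under RPL17 siRNA were 0 G2/M genes and 1 G1/S gene in HCT116, but 16 and 14 in HT29. Among them were TOP2A (3207 RPKM against 1845 in NC) and MKI67 (768 against 230). Both also exceeded NC under RPL9 and RPL27 siRNA in HT29 (2466 and 2425 for TOP2A, 611 and 556 for MKI67). For the HT29 counts, an effect of RPL17 siRNA and the state of that NC library cannot be told apart. RPL17 siRNA was above RPL9 siRNA by a smaller median than above RPL27 siRNA, at 0.43 and 0.67 for G2/M in HCT116 and 0.19 and 0.43 in HT29.

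**Figure D4:**
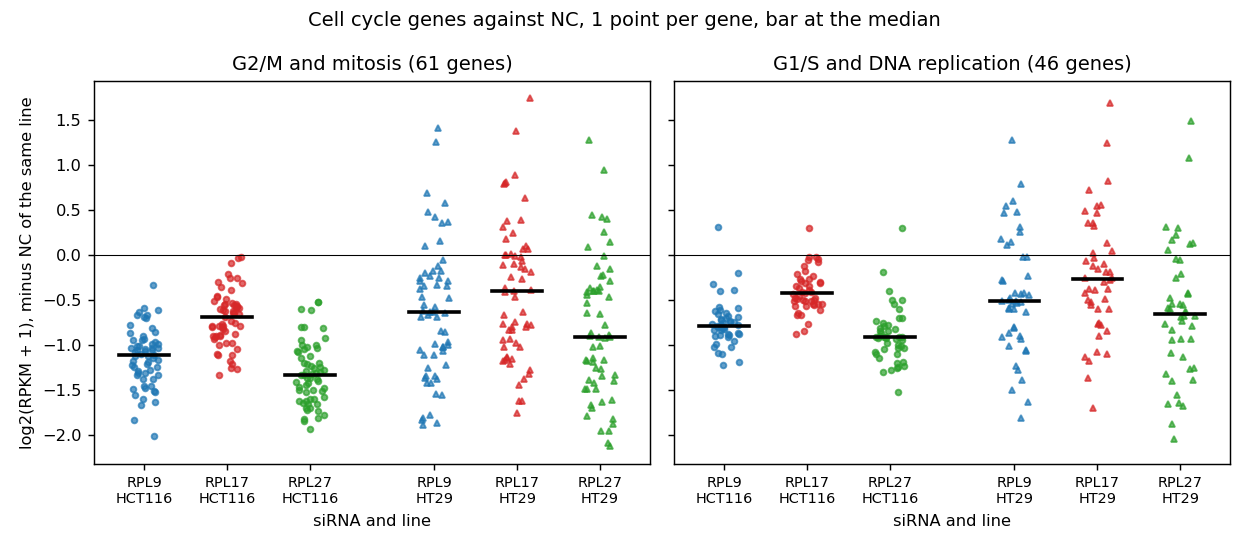
log2(RPKM + 1) minus NC of the same line for each member of the G2/M (left, 61 genes) and G1/S (right, 46 genes) lists under each RPL siRNA, with the median as a bar. The RPL17 siRNA medians (−0.69 and −0.43 in HCT116, −0.41 and −0.27 in HT29) are the closest to 0 in each line.

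Promoter windows of these genes are shown because the members moved together. They are from RefSeq (GRCh38.p14), 150 bases that end just before the annotated start, printed on the gene's strand with capitals for CCAAT, for TTTGAA (the core of the cell cycle genes homology region, bound by the DREAM complex and MuvB), and for TTTGGCGC or TTTCCCGC (E2F), on either strand. BUB1B, KIF4A, TOP2A and AURKB lead the G2/M list, and MKI67 was fixed for naming. MCM3 and CDC6 are among the leading G1/S members, of which MCM7 and ORC6 are not shown. PCNA, the sliding clamp of replication, was added as a window that holds an E2F match. The windows are chr15:40160919-40161068 (plus strand), chrX:70289954-70290103 (plus strand), chr17:40417897-40418046 (minus strand), chr17:8210226-8210375 (minus strand), chr10:128126424-128126573 (minus strand), chr6:52284743-52284892 (minus strand), chr17:40287729-40287878 (plus strand) and chr20:5126623-5126772 (minus strand).
BUB1B: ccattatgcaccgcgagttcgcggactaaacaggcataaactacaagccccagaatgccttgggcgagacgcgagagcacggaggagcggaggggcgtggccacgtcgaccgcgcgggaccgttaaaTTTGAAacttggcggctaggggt
KIF4A: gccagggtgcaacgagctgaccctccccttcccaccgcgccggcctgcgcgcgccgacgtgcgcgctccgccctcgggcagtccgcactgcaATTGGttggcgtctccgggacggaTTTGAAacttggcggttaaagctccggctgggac
TOP2A: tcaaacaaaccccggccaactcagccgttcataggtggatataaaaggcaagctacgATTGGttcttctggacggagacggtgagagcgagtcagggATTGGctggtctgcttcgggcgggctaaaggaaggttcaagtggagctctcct
AURKB: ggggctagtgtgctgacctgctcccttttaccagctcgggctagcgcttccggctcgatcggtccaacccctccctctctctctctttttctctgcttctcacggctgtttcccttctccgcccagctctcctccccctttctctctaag
MKI67: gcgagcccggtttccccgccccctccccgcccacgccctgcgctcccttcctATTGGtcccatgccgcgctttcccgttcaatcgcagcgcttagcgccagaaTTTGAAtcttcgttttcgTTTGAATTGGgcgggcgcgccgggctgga
MCM3: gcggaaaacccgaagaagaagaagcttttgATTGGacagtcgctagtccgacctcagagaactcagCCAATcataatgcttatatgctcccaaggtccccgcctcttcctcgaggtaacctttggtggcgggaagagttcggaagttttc
CDC6: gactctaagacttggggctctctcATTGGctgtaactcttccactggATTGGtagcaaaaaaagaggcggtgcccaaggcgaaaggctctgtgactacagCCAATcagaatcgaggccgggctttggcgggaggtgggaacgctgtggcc
PCNA: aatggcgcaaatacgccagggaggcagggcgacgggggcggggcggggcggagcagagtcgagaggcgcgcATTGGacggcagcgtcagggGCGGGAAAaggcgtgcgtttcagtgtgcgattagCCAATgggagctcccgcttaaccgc

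In windows of 300 bases (250 before and 50 after the start), TTTGAA was present in 33 of the 51 G2/M genes matched (64.7%), in 1 of the 38 G1/S genes (2.63%) and in 10.1% of the 11392 tested genes with a window. CCAAT was present in 78.4% of the G2/M, 55.3% of the G1/S and 36.4% of the tested windows. E2F letters were in 4 G2/M windows, in 20 G1/S windows (52.6%) and in 3.54% of the tested ones. Within a list, members with and without the letters had close medians under RPL17 siRNA: G2/M genes with TTTGAA had a median of 0.44 and those without it 0.45, and G1/S genes with E2F letters had 0.39 and those without them 0.36. In the shown windows BUB1B, KIF4A and MKI67 hold TTTGAA, TOP2A holds CCAAT in its reverse form only, and AURKB holds none of the letters.

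No p53 target differed past the threshold between RPL17 and the other RPL siRNAs, where 0.464% of all genes did. With so small a share, a count of none, here or in another short list, says little about that list. Over 33 genes the median was 0.03, with 9 (27.3%) above both other siRNAs in both lines and 7 (21.2%) below both, beside 16.5% and 15.1% of all genes. CDKN1A, the p21 inhibitor of cyclin-dependent kinases, had 1195, 958 and 1133 RPKM in HCT116 and 834, 761 and 864 in HT29 under RPL9, RPL17 and RPL27 siRNA (log2 −0.22, SE 0.07, adjusted p = 0.185). All 3 siRNAs were above NC for it, at 225 and 198 RPKM. MDM2 had 5026, 3774 and 3696 in HCT116 and 3646, 2622 and 2702 in HT29 (−0.23, SE 0.04, adjusted p = 0.0836), which placed RPL17 siRNA beside RPL27 siRNA. GDF15, a secreted stress cytokine, had 280.1, 258 and 726 in HCT116 and 374, 334 and 665 in HT29 (−0.69, SE 0.13, adjusted p = 0.0799), close to RPL9 siRNA.

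Stress response lists had no member past the threshold, which 0.464% of all genes passed. Genes of the amino acid response driven by ATF4 had a median of −0.04 over 37, the unfolded protein response 0.09 over 20 and heat shock chaperones −0.03 over 19. The cystine transporter SLC7A11 had 159.6, 103.5 and 282 RPKM in HCT116 and 295, 221 and 425 in HT29 (log2 −0.85, SE 0.13, adjusted p = 0.0576), and DDIT3, the factor CHOP, was at −0.85 (SE 0.17, adjusted p = 0.0877).

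NF-kB targets had a median of −0.07 over 27 genes, with none past the threshold, and BIRC3 showed 2 levels among the siRNAs. BIRC3, an inhibitor of apoptosis protein, had 223, 251 and 57.5 RPKM in HCT116 and 282, 231 and 49.0 in HT29 under RPL9, RPL17 and RPL27 siRNA. The RPL17 library lay near the RPL9 library, with log2 differences of 0.17 in HCT116 and −0.29 in HT29 (both lines −0.06, SE 0.16, adjusted p = 0.89). Against RPL27 siRNA alone, where 2.02% of genes passed, BIRC3 was higher by 2.16 (SE 0.14, adjusted p = 0.0094), and against both it was 1.05 (SE 0.15, adjusted p = 0.0542). MYC was at −0.16 (SE 0.11, adjusted p = 0.48).

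Complement and acute phase genes had a median of −0.24 over 21 tested genes, with C2 lower, 0 above both other siRNAs in both lines (16.5% of all genes) and 5, or 23.8%, below both (15.1% of all). Most of these genes were at low RPKM: C1R, the first protease of the classical pathway, had 9.36, 6.59 and 14.1 in HCT116 and 3.65, 1.84 and 5.42 in HT29 (log2 −0.83, SE 0.29, adjusted p = 0.211). Interferon-stimulated genes had a median of 0.17 over 29 and antigen presentation genes 0.09 over 16, with none past the threshold in either list.

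Adhesion and matrix lists held a few lower genes without a shift of the list. Collagens, laminins and integrins had a median of 0.02 over 37 genes, with COL6A1 and COL13A1 lower. COL6A1 had 2385, 1531 and 2811 RPKM in HCT116 and 2127, 1606 and 2531 in HT29 (log2 −0.64, SE 0.07, adjusted p = 0.0334). COL13A1, a transmembrane collagen, had 607, 506 and 1069.8 in HCT116 and 936, 665 and 1393 in HT29 (−0.72, SE 0.08, adjusted p = 0.0347). Both genes were lowest under RPL17 siRNA in each line. Claudins, cadherins and tight junction genes had a median of −0.00 over 28, with DSP, the desmosome protein desmoplakin, lower at 1897, 1131 and 1476 RPKM in HCT116 and 1807, 1098 and 1351 in HT29 (−0.54, SE 0.06, adjusted p = 0.0334).

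Other lists were near the median of all genes or differed between lines. Intestinal differentiation genes had a median of −0.36 over the 21 of 33 tested, but −0.37 in HCT116 and −0.02 in HT29, and none passed. Wnt targets and regulators had −0.13 over 18, with CCND1 higher, immediate early genes −0.14 over 26, keratins 0.07 over 24, ID genes and BMP signalling 0.04 over 17, TGF-beta response genes 0.08 over 20 and the BCL2 family and caspases 0.12 over 33. Replication-dependent histones, which mostly lack poly(A) tails, had −0.12 in HCT116 and 0.50 in HT29 over 11. RNA interference genes had 0.03 over 14 and proteasome subunits 0.01 over 31.

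Metabolic lists differed in how many members were beyond both other siRNAs. Of 67 respiratory chain subunits 26 (38.8%) were below both in both lines and 4 above both, beside 15.1% and 16.5% of all genes, with a median of −0.08, and the 1 gene past the threshold, UQCRC2, was higher through its low level under RPL27 siRNA (2937, 2641 and 1238 RPKM in HCT116 and 2807, 2528 and 1246 in HT29). Of 24 cholesterol synthesis and uptake genes 11 (45.8%, beside 16.5% of all genes) were above both and 1 below both (15.1% of all), with a median of 0.13 and none past the threshold. HMGCS1, the synthase before the rate-limiting reductase, had 329, 466 and 339 RPKM in HCT116 and 365, 422 and 354 in HT29 (log2 0.36, SE 0.09, adjusted p = 0.137). In glycolysis and hypoxia (median 0.01 over 33), NDRG1, a hypoxia-induced gene, was lower by the test (−0.64, SE 0.06, adjusted p = 0.0334), and PKM, pyruvate kinase, was higher against both others (0.33, SE 0.04, adjusted p = 0.0347) and −0.26 (adjusted p = 0.119) against RPL9 siRNA alone.

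**Figure D5:**
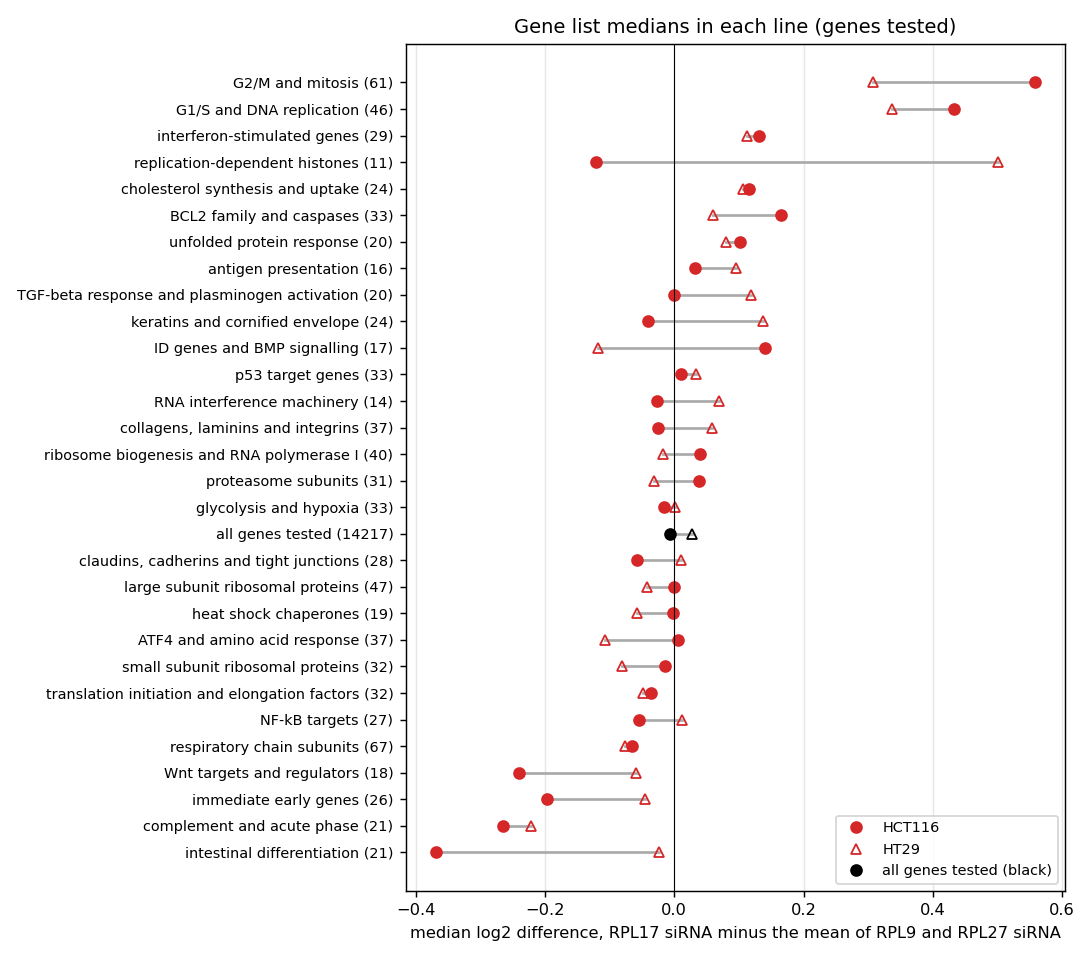
Median log2 difference of RPL17 siRNA from the mean of RPL9 and RPL27 siRNA over the tested members of each gene list, with filled circles for HCT116, open triangles for HT29, all genes in black and the number of genes in brackets. The G2/M and G1/S medians lie at 0.31 to 0.56 in both lines, and the histone and intestinal medians differ between the lines.

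Whether the difference between RPL17 siRNA and the others depends on the line could hardly be tested, since each line has 1 RPL17 siRNA library. No gene (0.0%) passed the threshold for the difference between HCT116 and HT29, and 218 of 14217 had an unadjusted p under 0.05 (limma, which takes the RPL9 and RPL27 siRNA libraries of a line as replicates although they are different treatments). These counts do not show that the lines respond alike. Most of the G2/M list was above both other siRNAs in each line, 59 of 61 genes in HCT116 and 54 in HT29. The share of all genes above both in a single line was not counted. The G2/M median was larger in HCT116.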

How the data were processed

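RNA from 8 siRNA-transfected cultures was sequenced from TruSeq libraries. Per the submitters' processing notes, CASAVA 1.8.2 and TopHat2 2.0.9 with hg19 were used. The deposited values are RPKM, 1 per gene symbol and library, per the file headers; how reads were assigned to genes, the sources used here do not give. Library depth was estimated from the smallest RPKM steps of single-exon genes (52.6% to 59.3% of low values within 0.05 of whole reads in the 6 libraries), too few for counts to be recovered, so no counting interval is given.

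Values were taken as log2(RPKM + 1), so fold changes of low genes are understated. limma 3.58.1 (R 4.3.3, trend) was fitted to 6 libraries with terms for cell line and siRNA (2 residual degrees of freedom), two-sided, with Benjamini-Hochberg adjustment over 14217 genes at 0.05. The fit was also run on simulated data in which RPL9 and RPL27 siRNA did not differ, unlike in the libraries here. Numbers 1 and 2 name the lines, and libraries were paired by line. Deviations from the siRNA means correlated within a line at 0.683 to 0.716. That only shows that the 2 lines differed in much the same genes under each siRNA. Nothing shows separate cultures beyond the 2 lines. Tables used Python 3.11.15 and pandas 2.3.3.

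Named genes are the 12 highest and 12 lowest past the threshold with the RPL17 library beyond both others in both lines, those past it or lowest in p in each list, and a fixed set. The members and lists were chosen with earlier results of these data known. Alternatives were other pseudocounts, filters, scalings, variance options and terms, and each library left out. Lists have no test. Some genes are counted but not reported here by name. Of the listed symbols, 15016 matched a RefSeq promoter.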

Additional observations from a re-analysis of the deposited data

How the results depend on the processing

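The count of 66 genes past the threshold was 41 with a pseudocount of 0.1 and 112 with 5, 0 without a filter (2599 at an unadjusted p under 0.05) and 321 with a mean RPKM of 5 or more (142 higher, 179 lower), 204 with quantile normalization, 0 in limma without trend (2077 unadjusted), 0 with no replicate block, that is without pairing by cell line (878 unadjusted), and 0 with the spread from all 8 libraries (528 unadjusted). It was 3 with RPL9 and RPL27 siRNA as 1 group (2 against 4 libraries), 7 against RPL9 siRNA alone and 287 against RPL27 siRNA alone. Leaving out 1 library gave 2 to 88 genes: 2 without RPL17 siRNA in HCT116, 2 without it in HT29, 3 without RPL27 siRNA in HCT116, 5 without it in HT29, and 55 and 88 without RPL9 siRNA in HCT116 and HT29. Where an RPL17 siRNA library is left out, the remaining one is assumed to vary like the others. Median-centring (51), robust variances (77) and removal of the trend with transcript length (70) stayed within 1.5 times. The log2 differences stay the same with other filters, variance options, no pairing, 1 group of RPL9 and RPL27 siRNA, or all 8 libraries. Their signs could not change there. Under the other settings all 66 genes kept their sign too, except that 63 did against RPL9 siRNA alone and 65 against RPL27 siRNA alone. The reversed values were those of RPL9 (−0.0049 against RPL27 siRNA alone) and of PKM (−0.26) and UQCRC2 (−0.15) against RPL9 siRNA alone. The difference between lines had 0 genes in each fit that could be made (130 to 802 unadjusted), and could not be fitted without an RPL17 siRNA library. The cause of these changes was not tested, other than the fewer genes or samples of a setting. With 2 lines and no repeat within a line, the SE rests on how far the lines agreed, and a gene not past the threshold is not shown to be alike.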

Other observations

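The genes below also passed the threshold and were chosen for mention after their values were seen, so they support no statement on a group. FTH1, the heavy chain of the iron store ferritin and a gene with pseudogenes that can share its reads, was lower under RPL17 siRNA, with 7756, 5435 and 9504 RPKM in HCT116 and 12406, 8472 and 12222 in HT29 under RPL9, RPL17 and RPL27 siRNA (log2 −0.60, SE 0.07, adjusted p = 0.0395, limma). ERRFI1, which encodes an inhibitor of the EGFR kinase, was lower, with 919.8, 616 and 1384 in HCT116 and 742, 499 and 1041 in HT29 (−0.84, SE 0.07, adjusted p = 0.0257). AGPAT9 (current symbol GPAT3), an acyltransferase of glycerolipid synthesis, was lower at 1003, 724 and 1344 in HCT116 and 851, 597 and 957 in HT29 (−0.64, SE 0.08, adjusted p = 0.043).

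OAZ1, the antizyme that targets ornithine decarboxylase for degradation, was lower at 1853, 1067 and 1595 RPKM in HCT116 and 1671, 869.9 and 1529.8 in HT29 (log2 −0.78, SE 0.07, adjusted p = 0.0266). ALDH1A3, a retinaldehyde dehydrogenase, was lower by 0.72 and was at 2519, 1616 and 2763 in HCT116 and 912, 625 and 1191 in HT29. Among the higher genes, SUPT16H, a subunit of the histone chaperone FACT, had 4058, 5716 and 4671 in HCT116 and 2988, 4287 and 3705 in HT29 (0.38, SE 0.05, adjusted p = 0.043). DAZAP1, an RNA-binding protein of splicing, had nearly equal values under RPL9 and RPL27 siRNA (1419.7 and 1451 in HCT116, 1375 and 1418 in HT29) and 1944 and 1860.1 under RPL17 siRNA (0.43, SE 0.05, adjusted p = 0.0439).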
